A study of Mus musculus with 6 samples.

Results

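Interferon response and antiviral sensor genes were examined in melanocytes kept with the growth factor NRG1, to see how the members of this innate immune programme stood in treated cells. The members were chosen by gene symbol from a fixed list of 56 names. For each gene the array probe set carrying only that symbol was used, and the one with the highest 6-array mean where there were several. This gave 53 measured members of 19938 named genes. Isg15 and Gbp2 had only probe sets shared with another gene, Ifi44 was not in the probe annotation, and none of these 3 was given a value.

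Both groups were Melan-Ink4a cells, an immortal melanocyte line from the skin of C57BL/6J mice, with the genotype Ink4a-ARF1 null. NRG1 cells (3 arrays) had received 10 nM NRG1-b1, a form of neuregulin 1 that binds the receptor ERBB3, for 21 days, and untreated cells (3 arrays) had not. All cells grew in medium with 200 nM of the phorbol ester TPA, an activator of protein kinase C, and 200 pM cholera toxin, which raises cyclic AMP, and RNA was taken at 90% confluence. The treatment text is the same for all 6 samples, so groups were taken from their titles. The measurements are of 1 cell line. Nothing in the labels shows that replicates were grown as independent cultures, and each p-value therefore reflects the variation among these 6 samples alone, some or all of which may be technical. Values are deposited log2 expression values from Affymetrix Mouse Gene 1.0 ST arrays. A difference is NRG1 minus untreated on the log2 scale.

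Interferons are secreted proteins that warn cells of viral infection. Type I interferon binds the receptor pair IFNAR1 and IFNAR2, the kinases JAK1 and TYK2 then activate STAT2, which acts with IRF9 in a complex that binds a promoter element called the ISRE. Interferon gamma uses IFNGR1 and IFNGR2 and acts through another element, the GAS. Viral RNA is sensed by RIG-I (the Ddx58 product) and MDA5 (Ifih1), which signal through the mitochondrial adaptor MAVS to IRF3 and IRF7. Many of the induced genes also have a low level of expression in cells that have met no virus.

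The promoters of several members carry the ISRE letters, and stretches are shown for those that fell and, for contrast, for others that passed no test. Sequences are from RefSeq, build GRCm38.p6, on the gene's own strand, and end before the start of transcription. Capitals mark each match to the ISRE core GAAANNGAAA, with N any base, on either strand, so that a match on the opposite strand reads TTTC, 2 bases, TTTC, and neighbouring matches may overlap.
Ifit3 (chr19:34583358-34583431, plus strand): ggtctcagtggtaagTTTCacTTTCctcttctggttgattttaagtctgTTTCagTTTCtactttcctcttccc
Ifit1 (chr19:34640770-34640828, plus strand): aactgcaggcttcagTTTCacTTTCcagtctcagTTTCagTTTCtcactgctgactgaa
Rsad2 (chr12:26456548-26456587, minus strand): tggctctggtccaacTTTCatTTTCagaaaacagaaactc
Bst2 (chr8:71537572-71537617, minus strand): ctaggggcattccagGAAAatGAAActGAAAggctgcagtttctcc
Gbp3 (chr3:142559984-142560029, plus strand): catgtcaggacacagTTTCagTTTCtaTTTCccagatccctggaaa
Socs1 (chr16:10785589-10785634, minus strand): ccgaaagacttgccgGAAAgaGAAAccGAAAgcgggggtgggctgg
Oas1a (chr5:120907526-120907560, minus strand): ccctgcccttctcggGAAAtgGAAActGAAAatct
The first 5 belong to members that fell with NRG1 and the last 2 to members that were not called. In the full windows, from 250 bases before to 50 after each listed start, the core was found in 15 of 44 measured members with a listed promoter, against 3.99% of all 27025 genes in the table. Among members it was found in 5 of 12 that fell, 1 of 3 that rose (Ddx58, just after its start) and 9 of 29 that were not called. The GAS core TTCNNNGAA, which reads the same on both strands, was found in 3 of 12, 0 of 3 and 10 of 29 of these members, against 9.55% of all genes in the table. Of 592 tested genes that hold the ISRE core and are not members, 8.28% fell and 12.8% rose, against 8.54% and 12.9% of the 15614 tested genes with a listed promoter. A match is a description of letters, and 9 measured members had no promoter in the table.

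NRG1 cells had lower transcript levels of a group of antiviral effector genes, led by Ifit3 and Ifit1, while most sensors, receptors and signalling genes passed no test. Of the 53 members, 14 fell and 3 rose (limma, adjusted p under 0.05 over all named genes), and 36 were not called. The share called was 32.1%, against 20.9% of all named genes. By direction the background was 8.56% of all genes for falls and 12.3% for rises. The median difference over the members was -0.089, against -0.029 over all named genes, and 39 of the 53 differences were below 0. The values of the NRG1 and untreated arrays did not overlap for 27 of the 53 members, against 36.7% of all named genes. Rises were 59.0% of the calls among all genes as deposited. Quantile normalization over all probe sets gave 57.0% rises, with 14 falls and 4 rises among members. Centring each array on its median gave 65.5% rises, with 12 falls and 4 rises among members. Quantile normalization over the named genes, chosen after earlier results were known, gave 48.5% rises, with 16 falls and 3 rises among members. For 1 gene taken alone, the smallest p that an exact permutation test of 3 arrays against 3 allows is 0.1.

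**Figure D1:**
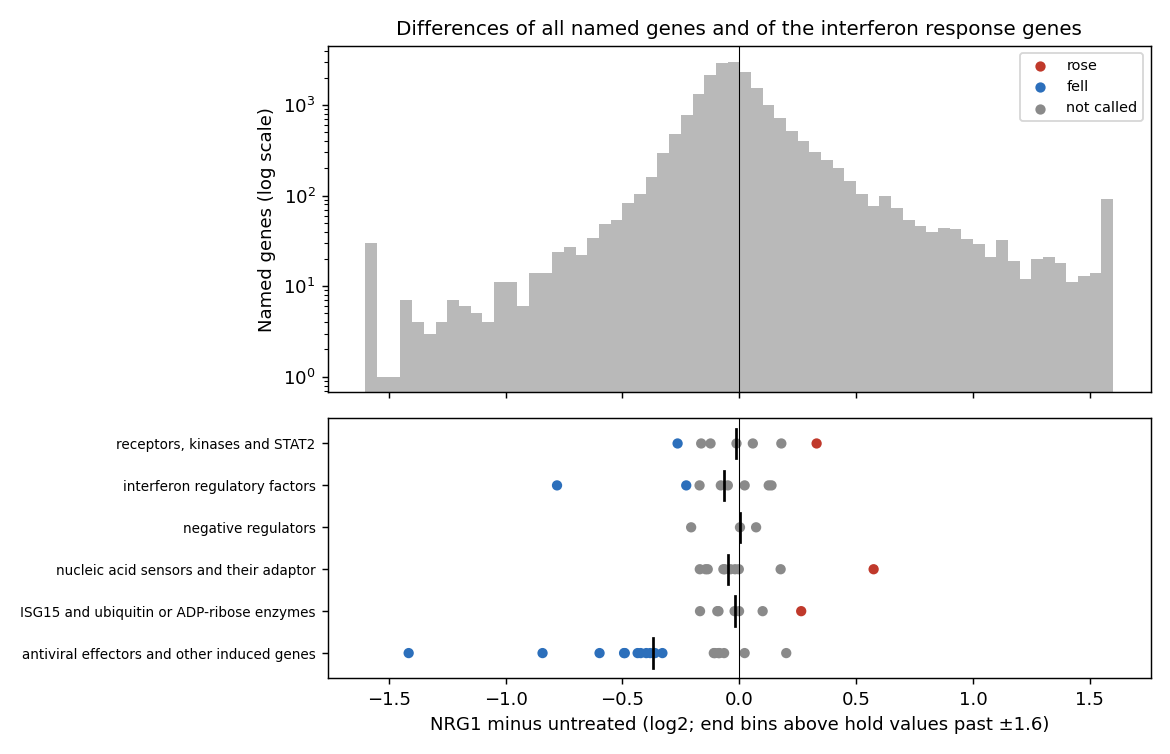
Upper panel, the number of named genes (log scale) by their difference, NRG1 minus untreated, on the log2 scale, with values past the axis ends in the end bins. Lower panel, each measured member by role, coloured by its call, with a black bar at the role's median, which is -0.371 for the antiviral effectors and between -0.064 and 0.003 for the other 5 roles.

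The calls were unevenly spread over the roles, with most of them among the antiviral effectors. These roles were set with earlier results of these data known. The OAS genes and Eif2ak2 were counted as sensors, and another grouping would change the counts. Of 18 measured antiviral effectors and other induced genes, 11 fell and 0 rose, with a median of -0.371, while of 10 sensors, including the adaptor gene Mavs, 1 rose and 0 fell, with a median of -0.050. In 7 receptors, kinases and STAT2 there was 1 rise and 1 fall. Of 8 interferon regulatory factors 2 fell, of 7 ubiquitin or ADP-ribose enzymes 1 rose, and of 3 negative regulators 0 were called by limma, with 0 at an unadjusted p under 0.05. The share called was 61.1% of the effectors and at most 28.6% in each other role, against 20.9% of all named genes. With 3 to 10 genes in each of these other roles, their shares cannot be set apart from that background. The difference between roles was not tested. On single arrays, the median deviation of the 18 effectors from each gene's 6-array mean was -0.175, -0.153 and -0.140 with NRG1 and 0.140, 0.204 and 0.170 untreated. All 3 NRG1 arrays lay below all 3 untreated arrays. Since 11 of the 18 were already called as falls on these same arrays, this separation adds no further support.

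**Figure D2:**
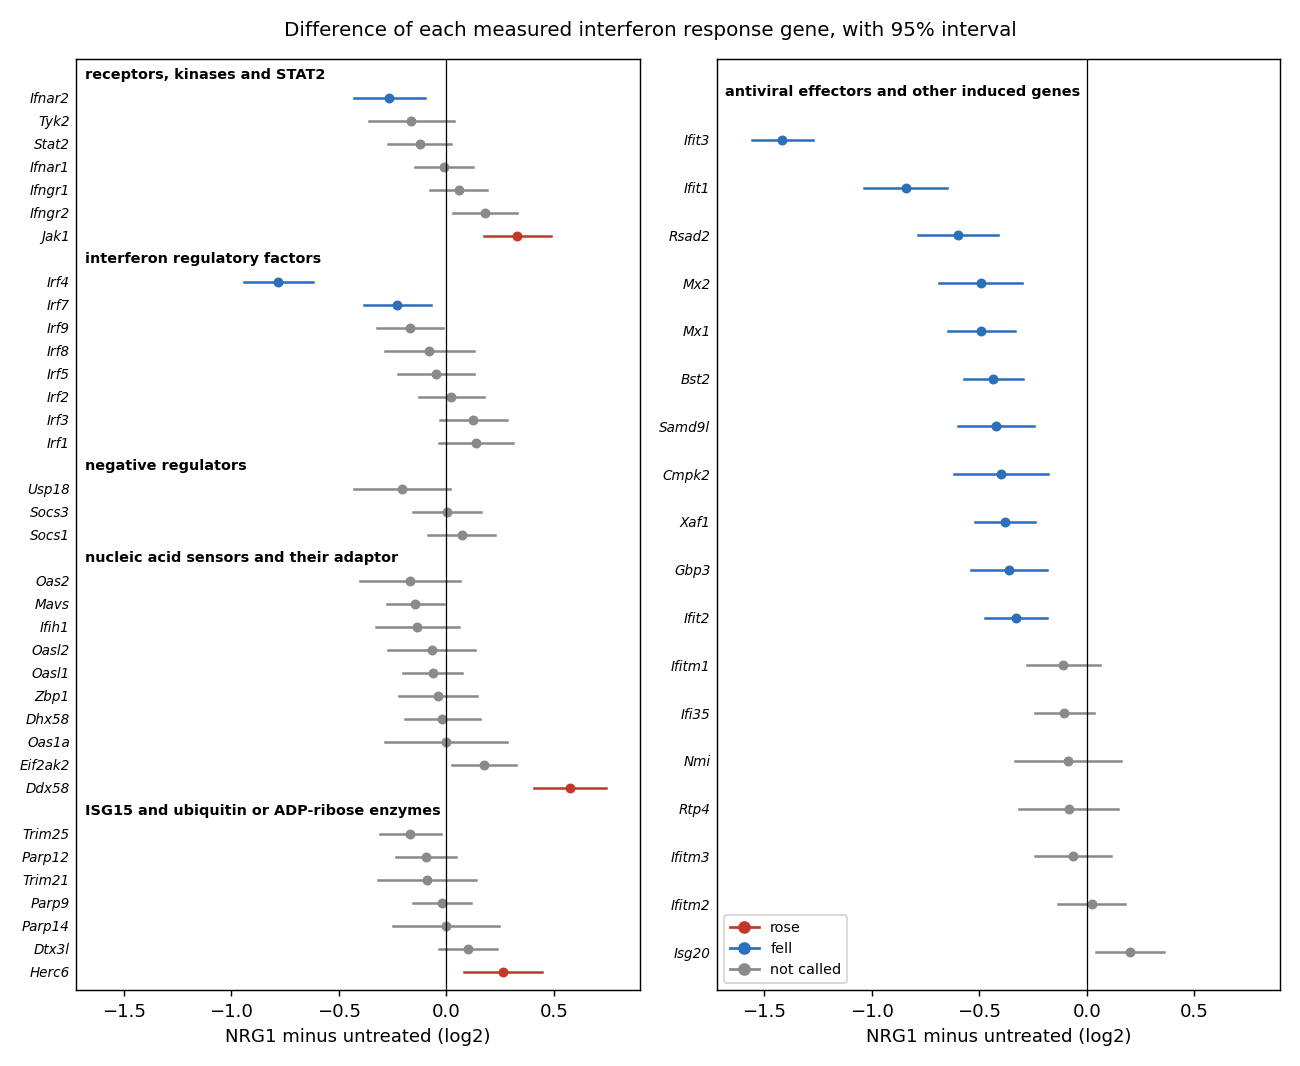
Difference of each of the 53 measured members (points, NRG1 minus untreated, log2) with its 95% interval from limma (bars), grouped by role and ordered within it. The 11 effectors that fell lie between -1.41 and -0.33, and the intervals of most other members cross 0.

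Among the effectors, Ifit3 and Ifit1 changed most, and their relative Ifit2 had the smallest of the 11 falls. IFIT proteins bind viral RNA and block its translation. Ifit3, whose human counterpart steadies IFIT1 on RNA, had 7.39, 7.51 and 7.52 with NRG1, against 8.95, 8.87 and 8.85 untreated. It was 2.67-fold lower with NRG1, a difference of -1.41 ± 0.064 (SE; limma, adjusted p = 1.83e-07). The groups were far apart relative to the spread within them, and 35 of the 19938 named genes had a lower difference. Ifit1, which binds RNA lacking the host's cap methylation, had 6.45, 6.25 and 6.54 with NRG1, against 7.34, 7.28 and 7.14 untreated. Its difference was -0.84 ± 0.086 (SE; limma, adjusted p = 5.75e-05), and the lowest untreated array lay above the highest NRG1 array. Ifit2 had 8.07 ± 0.033 with NRG1, against 8.40 ± 0.086 untreated (SD, n = 3 each), and fell by 0.33. These 3 genes lie close together on chromosome 19, with Ifit2 and Ifit3 next to each other among protein-coding genes and 3 IFIT relatives between Ifit3 and Ifit1. One of these relatives, Ifit3b, a close copy of Ifit3 and not a member, had 5.21, 5.63 and 5.88 with NRG1, against 7.31, 7.56 and 7.35 untreated (-1.83 ± 0.144, SE; limma, adjusted p = 9.44e-06). Probes of near-identical copies can bind each other's transcripts, and which copy gave the signal was not tested.

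Rsad2 and Cmpk2 are neighbours on chromosome 12 with no protein-coding gene between them, and both fell. Rsad2 encodes viperin, which makes an altered nucleotide that stops viral RNA synthesis, and Cmpk2 a mitochondrial nucleotide kinase. Rsad2 had 6.69, 6.996 and 6.95 with NRG1, against 7.53, 7.45 and 7.45 untreated, a difference of -0.60 ± 0.083 (SE; limma, adjusted p = 0.000486). Cmpk2 had 6.71, 7.08 and 7.05 with NRG1, against 7.28, 7.44 and 7.32 untreated, a difference of -0.40 ± 0.098 (SE; limma, adjusted p = 0.0155). In both genes NRG1 replicate 1 was the lowest of all arrays, and the groups did not overlap. The Cmpk2 call ended without untreated replicate 2 (-0.35; limma, adjusted p = 0.0534) and when adjusting over all probe sets (limma, adjusted p = 0.0593).

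Mx1 and Mx2 encode dynamin-like GTPases that trap viral particles, and C57BL/6 mice carry a defective Mx1. Whether these cells make a working protein from either gene was not tested. Mx1 had 5.72, 5.85 and 5.68 with NRG1, against 6.32, 6.21 and 6.19 untreated. Mx2 had 5.53, 5.74 and 5.45 with NRG1, against 6.14, 5.95 and 6.12 untreated. The falls were alike in size, -0.49 ± 0.069 for Mx1 (SE; limma, adjusted p = 0.000542) and -0.49 ± 0.086 for Mx2 (adjusted p = 0.00226). Both genes lay below the median level of all named genes, 7.17. In all, 7 of the 14 members that fell and 23 of the 53 measured lay below that level. No detection calls were used, so signal over background is unknown for Mx1 and Mx2.

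Bst2 encodes tetherin, which holds budding virus at the cell surface. It had 8.86, 8.80 and 8.80 with NRG1, against 9.18, 9.26 and 9.32 untreated, 1.35-fold lower with NRG1 (limma, adjusted p = 0.000596). The groups did not overlap, and the NRG1 arrays had an SD of 0.033. Samd9l, an antiviral restriction factor gene, had 6.93, 6.69 and 6.91 with NRG1, against 7.19, 7.34 and 7.26 untreated (-0.42 ± 0.079, SE; limma, adjusted p = 0.00336). Xaf1, whose product binds the apoptosis inhibitor XIAP, had 7.37, 7.39 and 7.26 with NRG1, against 7.68, 7.77 and 7.71 untreated (-0.38 ± 0.062, SE; limma, adjusted p = 0.00146). The eleventh gene, Gbp3, is a guanylate-binding protein gene and had a difference of -0.36. In each of these 4 genes every NRG1 array lay below every untreated array.

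The other 7 measured effectors passed no test. These were the 3 IFITM genes, whose proteins block viral entry at membranes, together with Isg20 (an RNA exonuclease gene), Ifi35, Nmi and Rtp4, with differences between -0.11 and 0.20. The IFITM genes lie side by side on chromosome 7. Ifitm2 had 9.66 ± 0.071 with NRG1, against 9.64 ± 0.093 untreated (SD, n = 3 each), and the 95% interval of its difference ran from -0.133 to 0.179. Ifitm3 had an interval from -0.241 to 0.111 and Ifitm1 from -0.279 to 0.061. Isg20 had 7.11, 7.15 and 7.24 with NRG1, against 7.02, 6.84 and 7.03 untreated, with an interval from 0.042 to 0.359. Its groups did not overlap, with the NRG1 arrays higher, and it was called under 4 of 16 alternative settings by limma (adjusted p from 0.0244 to 0.0477 in these), among them quantile normalization and centring each array. For the IFITM genes, falls as large as that of Bst2 (-0.43) lie outside all 3 of their intervals. Further probe sets gave -0.009 and 0.136 for Ifitm2 and 0.088 for Ifitm1.

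**Figure D3:**
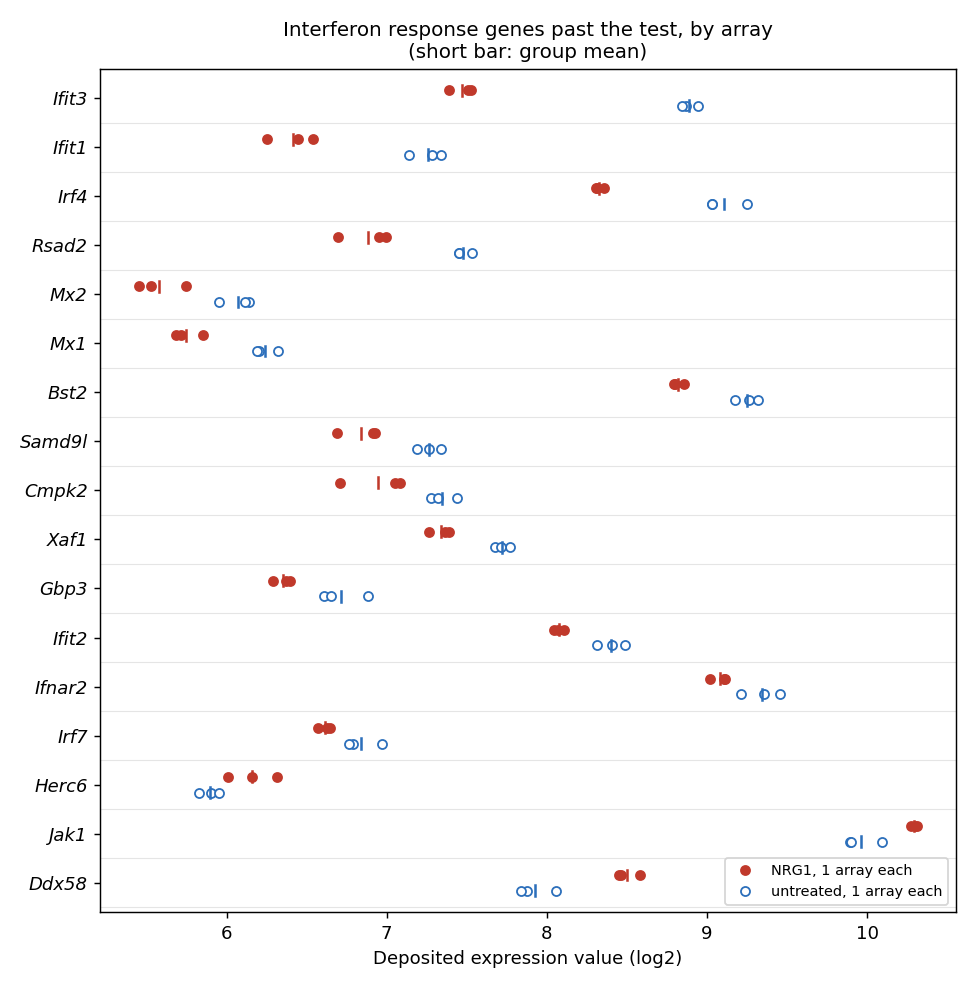
Deposited log2 value of the 17 called members on each array, NRG1 (filled) above untreated (open), with a short bar at each group mean, ordered from the largest fall (Ifit3) to the largest rise (Ddx58). In every row the 3 arrays of one group lie entirely to one side of the other group's. The rows were chosen by a test on these same arrays, and 36.7% of all named genes separate in this way.

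Among the RNA sensors the only call was a rise. Ddx58, which encodes RIG-I, had 8.45, 8.58 and 8.46 with NRG1, against 7.87, 8.06 and 7.84 untreated. This was 1.49-fold higher with NRG1 (difference 0.58 ± 0.075, SE; limma, adjusted p = 0.000315), the opposite direction to the effectors. Ifih1, which encodes the related sensor MDA5, had 5.59, 5.91 and 5.87 with NRG1, against 5.98, 5.89 and 5.89 untreated, and the groups overlapped (-0.14 ± 0.086, SE; limma, adjusted p = 0.328). Mavs, their shared adaptor gene, had 8.87, 8.83 and 8.86 with NRG1, against 8.94 to 9.06 on the 3 untreated arrays. Its arrays did not overlap, but the difference of -0.14 ± 0.059 (SE) missed the threshold (limma, adjusted p = 0.124). It was called under 3 of 17 alternative settings.

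The remaining sensors were not called. Dhx58, the third gene of the RIG-I family, had a difference of -0.018, and Zbp1, a sensor gene for Z-form nucleic acids, one of -0.038. Eif2ak2, which encodes the kinase PKR that halts translation on double-stranded RNA, had 8.49 ± 0.013 with NRG1, against 8.31 ± 0.102 untreated (SD, n = 3 each). That difference of 0.18 was not called (95% interval 0.028 to 0.325). Eif2ak2 was called under 4 of 17 alternative settings, among them leaving out untreated replicate 2 (0.23; limma, adjusted p = 0.0305). The OAS genes, whose enzymes make the messenger that activates RNase L, or in the case of Oasl1 and Oasl2 are relatives of such enzymes, had differences from -0.17 to -0.002. The SD of the untreated arrays was 0.309 for Oas1a, 0.213 for Oas2, 0.136 for Oasl2 and 0.066 for Oasl1. Oas1a had 6.79, 6.80 and 6.26 on the untreated arrays, and its interval from -0.285 to 0.281 allows a change in either direction. Values of Eif2ak2 and Oas1a were picked for print after they had been seen. Oas2 became a call without untreated replicate 2 (-0.28; limma, adjusted p = 0.0458).

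Of the receptor and signalling genes, 1 fell and 1 rose. Ifnar2, the signalling chain gene of the type I receptor, had 9.11, 9.11 and 9.02 with NRG1, against 9.21, 9.46 and 9.36 untreated (-0.26 ± 0.073, SE; limma, adjusted p = 0.0279). This call was close to the threshold. It ended without NRG1 replicate 1 (-0.28, adjusted p = 0.055), 2 (-0.28, adjusted p = 0.0564) or 3 (-0.23, adjusted p = 0.101). Of the untreated arrays, leaving out replicate 2 (-0.21, adjusted p = 0.0685) or 3 (-0.26, adjusted p = 0.0742) also ended it, all by limma. Centring each array (adjusted p = 0.054), array weights (adjusted p = 0.051) and adjusting over all probe sets (adjusted p = 0.0715) ended it too, while the difference stayed below 0 in all 17 settings. Its partner chain gene Ifnar1 had 9.43, 9.52 and 9.46 with NRG1, against 9.46, 9.54 and 9.45 untreated, with an interval from -0.145 to 0.122.

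The interferon gamma receptor genes were not called. Ifngr1, the ligand-binding chain gene, had 8.73, 8.67 and 8.70 with NRG1, against 8.63, 8.70 and 8.60 untreated. Ifngr2 had 9.84, 9.94 and 9.83 with NRG1, against 9.61, 9.79 and 9.67 untreated. Its arrays did not overlap. Ifngr2 was called under 4 of 17 alternative settings, among them leaving out untreated replicate 2 (0.23; limma, adjusted p = 0.0366). On chromosome 16 Ifnar2, Il10rb, Ifnar1 and Ifngr2 follow each other among protein-coding genes. Il10rb, a receptor chain gene of interleukin 10 and of interferon lambda, had 9.98, 10.08 and 10.09 with NRG1, against 10.58, 10.63 and 10.53 untreated. It fell by 0.53 (limma, adjusted p = 0.000152), more than its 3 neighbours in absolute size.

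Jak1, the kinase gene shared by both interferon receptors and many cytokine receptors, had 10.31, 10.27 and 10.30 with NRG1, against 9.90, 10.09 and 9.90 untreated. It rose by 0.33 ± 0.069 (SE; limma, adjusted p = 0.00643). Tyk2, its partner kinase gene, had a difference of -0.16 with an interval from -0.360 to 0.035. Stat2 had 7.97, 8.15 and 8.04 with NRG1, against 8.13, 8.18 and 8.22 untreated, and the groups overlapped (-0.12 ± 0.066, SE; limma, adjusted p = 0.239). Irf9, the DNA-binding partner gene of STAT2, had 8.30, 8.195 and 8.195 with NRG1, against 8.37, 8.503 and 8.32 untreated. The groups were apart, but the difference of -0.17 ± 0.068 (SE) was not called (limma, adjusted p = 0.116).

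Among the interferon regulatory factors, Irf4 fell most. It is best known in lymphocytes, and in human melanocytes its product works with MITF on the tyrosinase gene. Irf4 had 8.31, 8.35 and 8.30 with NRG1, against 9.03, 9.25 and 9.03 untreated, 1.72-fold lower with NRG1 (difference -0.78 ± 0.072, SE; limma, adjusted p = 2.95e-05). Pigment cell markers moved the same way, with 7 of 8 falling, against 8.56% of all named genes. These were Tyr, Tyrp1, Dct, Mlana, Pmel, Mitf and Slc45a2, and Sox10 was not called. The mean log2 level of these 8 was between 12.18 and 12.20 on the NRG1 arrays and between 12.64 and 12.66 on the untreated arrays. The part of this shift in the Irf4 result was not tested.

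Irf7, the factor that amplifies type I interferon production, had 6.57, 6.63 and 6.64 with NRG1, against 6.97, 6.79 and 6.76 untreated (-0.23 ± 0.070, SE; limma, adjusted p = 0.0452). The call ended without NRG1 replicate 1 (-0.20, adjusted p = 0.142), 2 (-0.23, adjusted p = 0.094) or 3 (-0.24, adjusted p = 0.086), and when untreated replicate 1 was left out (-0.16, adjusted p = 0.181), all by limma. It also ended after normalizing over all probe sets by quantiles (-0.20; limma, adjusted p = 0.0659) or centring each array (-0.20; limma, adjusted p = 0.0706). Irf7 was called under 5 of 16 alternative settings. Irf1, an activator of interferon gamma targets, had 7.97, 7.74 and 7.75 with NRG1, against 7.61, 7.69 and 7.74 untreated. NRG1 replicate 1 stood above the other 5 arrays, its second probe set gave -0.044, and it was not called (limma, adjusted p = 0.256). Irf2, Irf3, Irf5 and Irf8 had differences from -0.079 to 0.126, and 0 of these 4 were called by limma or reached an unadjusted p under 0.05.

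The negative regulators did not move past the test. Socs3, an inhibitor of JAK kinases, had 7.79, 8.02 and 7.90 with NRG1, against 7.92, 7.87 and 7.92 untreated, with an interval from -0.155 to 0.161. Socs1, the main brake on interferon receptors, had an interval from -0.085 to 0.228. Usp18, which removes ISG15 from proteins and blocks IFNAR2, had 6.24, 6.22 and 6.16 with NRG1, against 6.35, 6.23 and 6.66 untreated. Untreated replicate 3 stood above the rest, and the difference of -0.21 was not called (limma, adjusted p = 0.194).

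In the ubiquitin and ADP-ribose enzymes, Herc6, the main ISG15 ligase gene of the mouse, had 6.31, 6.01 and 6.16 with NRG1, against 5.91, 5.95 and 5.83 untreated (0.27 ± 0.081, SE; limma, adjusted p = 0.0435). That rise was lost without NRG1 replicate 1 (0.19, adjusted p = 0.158) or 3 (0.27, adjusted p = 0.102), and when an untreated array was left out, be it replicate 1 (0.27, adjusted p = 0.103), 2 (0.29, adjusted p = 0.0527) or 3 (0.23, adjusted p = 0.132), all by limma. Herc6 was called under 7 of 16 alternative settings. Parp14, Dtx3l and Parp9, which follow each other on chromosome 16, had differences of -0.001, 0.10 and -0.020, in contrast to the neighbours Rsad2 and Cmpk2. Trim25, the ubiquitin ligase gene for RIG-I, had a difference of -0.17 with an interval from -0.310 to -0.026, and Trim21, an intracellular antibody receptor gene, had -0.089 with an interval from -0.316 to 0.139. Neither these 2 nor Parp12 (-0.094) was called.

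When a change beyond 1.2-fold was required (limma treat), the falls of Ifit3, Ifit1, Irf4 and Rsad2 and the rise of Ddx58 passed, and the other 12 called members did not.

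Further genes of the pathway moved in both directions. Of 43 other measured interferon-stimulated genes, 7 fell and 6 rose, with a median of -0.054. The share called was 30.2%, against 20.9% of all named genes, of which 8.56% fell and 12.3% rose. Besides Ifit3b the largest falls were those of Gbp7 (-0.43), which codes for another guanylate-binding protein, and of Tapbp (-0.39), which codes for the peptide-loading protein tapasin. Lgals9, the galectin 9 gene, had 9.95, 9.77 and 9.85 with NRG1, against 9.02, 8.97 and 9.001 untreated, 1.82-fold higher with NRG1 (limma, adjusted p = 7.38e-06). Trim14, whose human product acts at MAVS, rose by 0.56 and Slfn9 by 0.54. Of 7 interferon ligand genes 1 (14.3%) fell, Ifnk, a keratinocyte interferon gene, by 0.30. Ifnk had 5.125 ± 0.034 with NRG1, against 5.42 ± 0.179 untreated (SD, n = 3 each). Ifnb1 had 5.53 ± 0.058 with NRG1, against 5.66 ± 0.087 untreated (SD, n = 3 each). Transcripts at such low levels, Ifnk and Ifnb1 alike, cannot be told from background in a table without detection calls.

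Of 13 relay genes of nucleic acid sensing, 2 rose and 0 fell, so 15.4% were called, against 20.9% of all named genes. Sting1, the adaptor gene of cytosolic DNA sensing, had 9.99, 9.92 and 9.90 with NRG1, against 9.22, 9.38 and 9.27 untreated (0.65 ± 0.065, SE; limma, adjusted p = 5.07e-05). Tlr3, the endosomal receptor gene for double-stranded RNA, rose by 0.24, while Tbk1, the kinase gene downstream of MAVS and STING, had a difference of -0.031. Of 22 other JAK-STAT genes, 4 rose and 3 fell, so 31.8% were called. Stat3, a STAT of the interleukin 6 family, had 10.19, 10.16 and 10.12 with NRG1, against 9.58, 9.71 and 9.53 untreated (0.55 ± 0.066, SE; limma, adjusted p = 0.000188). The phosphatase genes Ptpn6 and Ptpn2, whose products switch JAK-STAT signalling off, both rose by 0.63, and Jak2 (0.12) was not called. Besides Il10rb, Stat5b fell by 0.30 and Socs2 by 0.28.

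**Figure D4:**
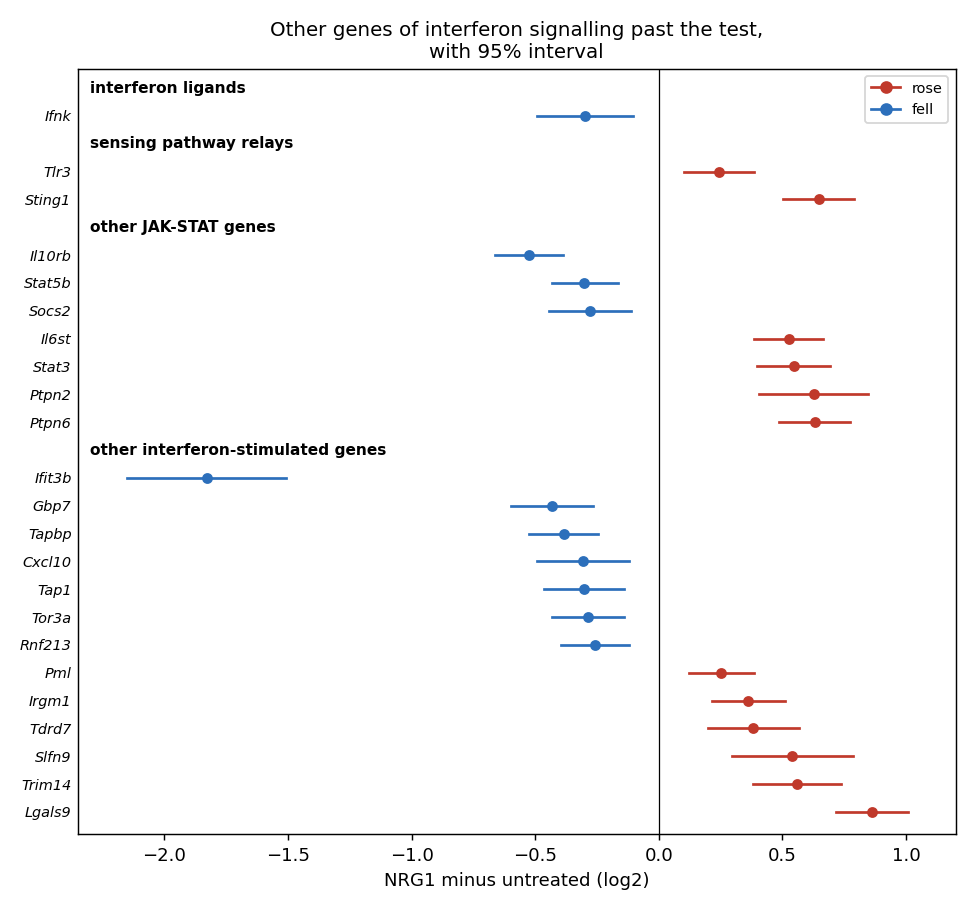
Difference (points, NRG1 minus untreated, log2) and 95% interval (bars) of the called genes in 4 further lists of interferon signalling. Sting1, Tlr3 and Lgals9 lie to the right of 0, and Ifit3b, at -1.83, lies furthest to the left.

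Immune cells carry many of these transcripts, so their markers were set beside the result. Of 8 macrophage and leukocyte markers 1 rose (Cd68, a lysosomal protein gene, by 0.23) and 0 fell, and of 6 lymphocyte and 5 dendritic cell markers 0 were called by limma (0 and 2 at an unadjusted p under 0.05). The mean log2 level of the 8 leukocyte markers was 6.00 to 6.03 on NRG1 arrays and 5.99 to 6.12 on untreated arrays, below the median level of all named genes. The dendritic list had 6.39 to 6.45 on NRG1 arrays and 6.45 to 6.57 on untreated arrays, and the lymphocyte list 5.57 to 5.68 on NRG1 arrays and 5.57 to 5.795 on untreated arrays. Of 7 keratinocyte and 4 endothelial markers 0 were called by limma (0 and 1 at an unadjusted p under 0.05), and of 6 fibroblast markers 1 rose (Col1a1, by 0.86). Beside these marker counts, 12.3% of all named genes rose and 8.56% fell. An array value has no true 0, so absence cannot be read from these levels. The 8 pigment cell markers had 6-array means between 10.96 and 13.88. Array medians lay between 6.99 and 7.07 over all probe sets, and the correlation across named genes was 0.981 to 0.986 between an NRG1 and an untreated array and 0.996 to 0.997 between replicates. In bulk RNA, fewer cells with a transcript and less transcript per cell cannot be told apart.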

How the data were processed

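RNA from 6 samples (200 ng each) was measured on Affymetrix arrays. The deposited values are on the log2 scale, read from the values themselves, and RMA and GCOS are named as tools, per the submitters' processing notes, with no version or setting given in the sources used here. Of 35557 probe sets, 21789 had 1 gene, 1621 several and 12147 were unnamed here. Symbols were updated through Entrez numbers to RefSeq GRCm38.p6 (21698 matched), and all 6 value columns matched a sample by name.

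The 19938 named genes were fitted by linear models with empirical Bayes moderation (limma 3.58.1, R 4.3.3; 2-sided, Benjamini-Hochberg over all genes, threshold 0.05), with no filter on level. Array values were to be given for up to 10 called members per direction with the largest change, for 15 receptors, factors and effectors whatever their result, and, in a role with no call, for the member with the smallest p. In other lists, up to 3 called genes per direction and some fixed genes were named. Isg15 was not analysed here, and further members were described after their values were seen. Members and lists were chosen with earlier results of these data known. The fit was tested on simulated data. With 6 arrays the precision is low, and the members' median standard error was 0.072. Alternatives covered normalization, dim genes, probe sets, variance prior, array weights, the replicate number, single arrays and a minimum change.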

Additional observations from a re-analysis of the deposited data

How the results depend on the processing

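Over 17 alternative settings, no called member changed direction. The falls of Ifit3, Ifit1, Irf4 and Rsad2 and the rise of Ddx58 were called under every setting that tested them, and 7 further falls were lost only against a minimum change of 1.2-fold. Of the 36 members not called, 29 were called under no setting and 7 under at least 1. Array weights gave 2881 falls among all genes, against 1707 in the reported fit. Array weights, and an intensity trend with a robust prior, each gave 5 rises among members, against 3; the cause was not tested. A minimum change of 1.2-fold left 883 rises and 342 falls among all genes, and 1 rise and 4 falls among members, which follows from its stricter hypothesis. Leaving out 1 array at a time moved the members' median between -0.132 (without NRG1 replicate 2) and -0.075 (without untreated replicate 3), and the cause was not tested. Quantile normalization over the named genes alone was an alternative chosen after earlier results were known. With a replicate block, 13 members fell and 2 rose (1411 falls and 2198 rises among all genes). Deviations of same-numbered arrays correlated at -0.095, -0.164 and 0.074, and those of differently numbered arrays at -0.196 to 0.247. With 3 arrays per group this cannot decide whether the numbers pair the samples, and the labels do not say. No detection calls were used, so signal over background is unknown for the 23 members below the median level.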
